A study of Homo sapiens with 24 samples.

Results

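MV4-11 is a human leukemia cell line that the submitters describe as biphenotypic B myelomonocytic leukemia with the MLL-AF4 rearrangement. The account below follows its vehicle cultures over time and compares day 4 with the other 2 sampled days. The members were taken by title: 3 arrays of MV4-11 vehicle at day 4, set against 6 arrays of MV4-11 vehicle at days 2 and 6 (3 at each day), so 9 of the 24 arrays of the series. All 9 cultures grew in IMDM medium with 10% FBS and received 0.1% DMSO, the solvent control. The other 9 MV4-11 arrays come from cells given 3 uM EPZ004777, an inhibitor of the histone H3 lysine methyltransferase DOT1L, for the same days, and they serve here as another time course of the same line. The remaining 6 arrays are MOLM-13 cells, used for the shared estimate of spread and in the choice of probe sets and the filter on low values, which span all 24 arrays (270 of the genes tested passed it only with the MOLM-13 arrays). Replicates are labelled as biological. The sources used here do not give how the cultures were seeded, fed or split or how dense they were at harvest, so the day of harvest cannot be told apart from the state of the cultures harvested on that day.

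Cells in suspension culture use up glucose and amino acids, release lactate and crowd each other, and several transcription programs respond to such conditions. Type I interferons bind a surface receptor that signals through JAK kinases to a complex of STAT proteins and IRF9, which binds interferon-stimulated response elements (ISRE) and induces antiviral genes. Lack of amino acids and unfolded proteins in the endoplasmic reticulum both act through phosphorylation of eIF2alpha on ATF4, a transcription factor that turns on amino acid transport, redox and feedback genes, while low sterol activates SREBP2 and low oxygen stabilises HIF1A.

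Values are log2 of the deposited intensity of Affymetrix probe sets. On the 9 vehicle arrays 35.6% to 37.2% of probe sets sat at the lowest value the background adjustment gives, a log2 of 2.19, so a difference that starts from that value depends on the adjustment and is no measure of fold in molecules. A gene was called when its adjusted p was under 0.05 in limma (linear models with moderated variances, Benjamini-Hochberg adjustment over 10971 genes). The log2 difference of the main comparison is the day 4 mean minus the average of the day 2 and day 6 means. Across genes, the arrays of each day correlated with each other at mean r of 0.9957 to 0.9978. The day 6 arrays differed in which other day they were near. Replicate 1 correlated with the day 4 arrays at a mean of 0.9939, against 0.9903 and 0.9880 for replicates 2 and 3, though with its own group more, at 0.9957. Replicate 3 correlated with the day 2 arrays at 0.9973, above the 0.9958 with its own group. A measure of RNA integrity also moved with the day. The 3' minus 5' difference of the actin and GAPDH control probe sets was 0.695 to 0.817 on day 4, 0.641 to 0.676 on day 2 and 0.567 to 0.583 on day 6, so the day 4 arrays were the highest of the 9. Its part in the results was not tested directly, and with this measure in the fit 3633 genes were called in place of 3140.

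The cells carried markers of their labelled type on every array. LYZ (lysozyme, a monocyte and granulocyte product), FLT3 (the growth factor receptor), CSF1R (the macrophage colony-stimulating factor receptor), MEIS1 (a cofactor of HOX proteins), MPO (myeloperoxidase) and ITGAM (CD11b) all passed the filter. Their summed level was 14.46 to 14.58 on day 4 and 14.50 to 14.73 on days 2 and 6. Of the B cell markers, MS4A1, CD79A and VPREB1 were at or near the lowest value, whereas CD79B was at 4.71 to 5.66 and PAX5 at 3.76 to 5.15 over the 9 arrays, neither of them called. Of the T and NK cell, plasmacytoid dendritic cell, megakaryocyte and erythroid markers, CD3E, CD3G, CD2 and GNLY, CLEC4C and TCL1A, PF4, PPBP and GP9, and HBB were at or near the lowest value on all 9 arrays. Others were not. NKG7, a granule protein of cytotoxic and myeloid cells, was at 10.36 to 10.56 on day 4 and 10.05 to 10.41 on the other days and was called higher by 0.21, a call lost in 5 of the 20 alternatives (adjusted p up to 0.158 in limma). ITGA2B, an integrin of platelets and their precursors, was at 5.20 to 5.31 against 4.32 to 5.04 and was called higher by 0.54, with no overlap. AHSP (erythroid), KRT18 and COL1A1 were above the lowest value and were not called between days. The part of these in the results was not tested. In these bulk samples, fewer cells of a kind and less RNA per cell cannot be told apart.

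On day 4 the untreated cells expressed most interferon-stimulated genes, and part of the cytokine, stress and lipid genes, at mean levels above the other days. Cell cycle, ribosome biogenesis and respiratory chain genes were slightly lower. The respiratory chain calls rested mostly on day 4 replicate 3, although the median of that list stayed negative without it. For some of the raised lists, day 6 replicate 1 lay within or near the day 4 range. Of 10971 genes, 3140 were called (28.6%): 1471 higher on day 4 (13.4%) and 1669 lower (15.2%). The 2 directions differed in size. Of the genes called higher, 161 differed by at least 2-fold, and of those called lower, 2 did. The median difference was 0.39 among the higher and -0.28 among the lower genes, against -0.01 over all genes. On 1344 genes the 3 day 4 arrays lay above all 6 others (12.3% of genes), and on 1761 they lay below (16.1%). Against day 2 alone 2958 genes were called (27.0%), and against day 6 alone 2110 (19.2%). These comparisons share the day 4 arrays. Day 4 replicate 3 carried a large part of the count. Without it 1873 genes were called in the main comparison (958 higher and 915 lower), 1871 against day 2 and 1096 against day 6. List counts below stand beside the 13.4% and 15.2% of all genes. Those without that replicate stand beside 958 and 915 of 10971.

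**Figure D1:**
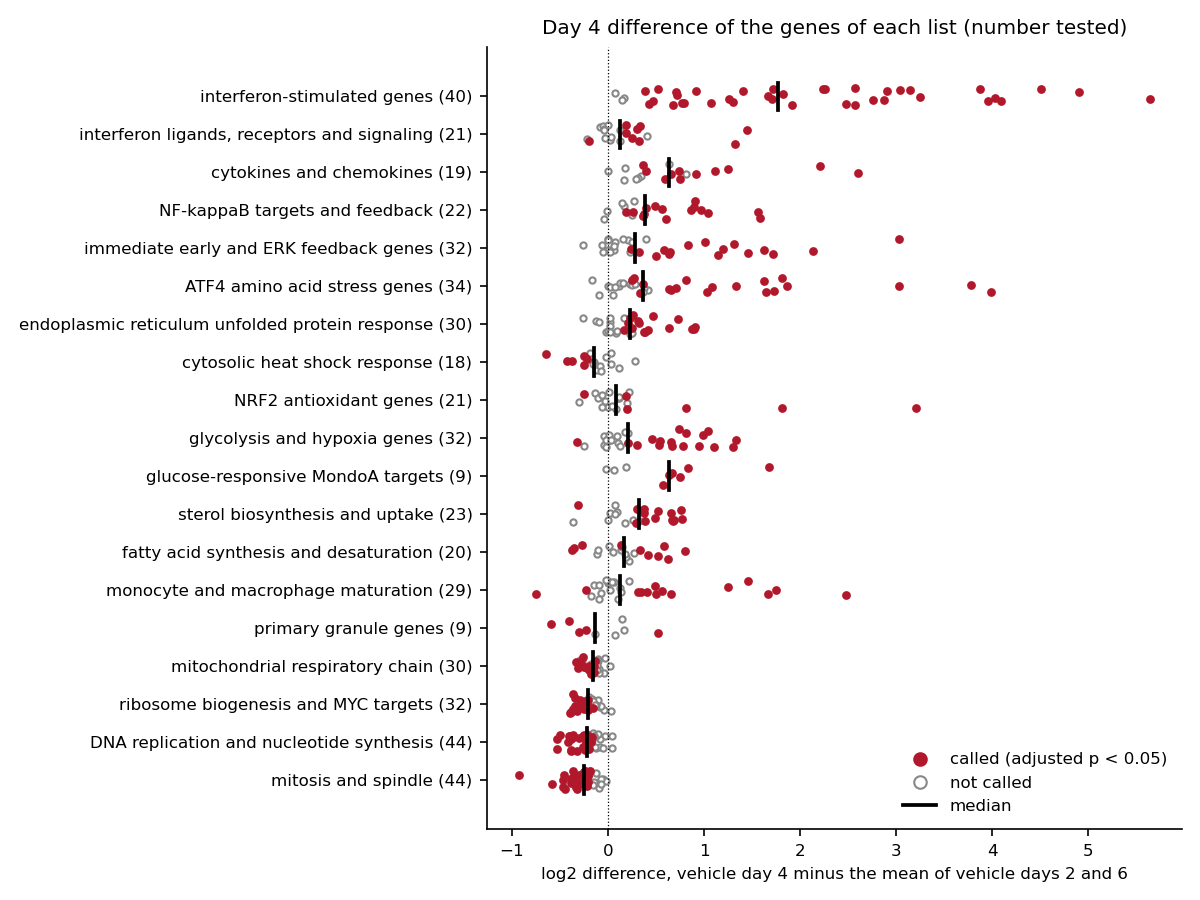
Log2 difference between vehicle day 4 (3 arrays) and the mean of vehicle days 2 and 6 (6 arrays) for each tested gene of 19 lists, with filled points for called genes and a bar at the list's median. Interferon-stimulated genes reach from 0.08 to 5.65 with a median of 1.77, while the mitosis, DNA replication, ribosome and respiratory chain lists lie mostly just below 0.

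Interferon-stimulated genes differed most. Of 49 with a probe set, 40 passed the filter on low values. Of these 40, 37 rose and none fell, with a median of 1.77, against 13.4% of all genes called higher. For 8 of the 40 the filter was passed only through the vehicle day 4 arrays, so that they had to differ, and without them 29 of 32 rose, with a median of 1.54. Of the other lists, the immediate early, ATF4 and monocyte lists had 1 such gene each and the rest 0. Without day 4 replicate 3, 36 rose, and without day 6 replicate 1, 37 rose with a median of 1.93. The 3 that were not called were TRIM22, BST2 and IFITM3, at 0.17, 0.08 and 0.15. CXCL10, a chemokine that draws activated T cells, had log2 levels of 8.72, 8.02 and 8.92 on day 4, 2.19, 2.27 and 3.50 on day 2 and 5.11, 2.19 and 2.19 on day 6. All 3 day 4 arrays were high, day 6 replicate 1 lay between, and 4 of the remaining 5 sat near the lowest value. Its difference was 5.65 (SE 0.44, adjusted p = 8.5e-08 in limma), the largest of all genes. MX1, a GTPase that blocks influenza and other viruses, stood at 9.31, 8.57 and 8.67 on day 4, 3.06, 4.54 and 3.87 on day 2 and 7.31, 4.20 and 3.06 on day 6, a difference of 4.51 (SE 0.57, adjusted p = 1.3e-05 in limma). The groups did not overlap, and day 6 replicate 1 was again the nearest.

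IFIT1, which binds viral RNA lacking the host cap methylation, read 8.68, 7.73 and 8.77 on day 4, 2.19, 3.96 and 2.19 on day 2 and 7.98, 2.44 and 2.19 on day 6. Here the groups overlapped, because day 6 replicate 1 exceeded day 4 replicate 2. The difference was 4.90 (SE 0.81, adjusted p = 0.0002 in limma). That SE is pooled over all 24 arrays, with the treated ones all at 2.19, so it does not measure the vehicle spread. As for CXCL10, only vehicle day 4 and day 6 replicate 1 of the MV4-11 arrays reached the filter level. IFIT3 overlapped in the same way, at 9.80, 9.16 and 9.79 on day 4, 2.73, 6.44 and 5.71 on day 2 and 9.52, 5.95 and 2.57 on day 6, and its call was lost in a fit on the 9 vehicle arrays alone (adjusted p = 0.0643 in limma). Other members started from a clear signal, so that the background adjustment matters less for them. ISG15, a ubiquitin-like modifier, rose from 9.50, 9.95 and 9.78 on day 2 and 10.64, 9.80 and 9.64 on day 6 to 12.04, 11.39 and 11.69 on day 4, a difference of 1.82 (SE 0.17, adjusted p = 6.7e-07 in limma) and a 3.54-fold change, with no overlap. IFI6, a membrane protein of the endoplasmic reticulum and mitochondria, rose 9.52-fold. EIF2AK2 (the kinase PKR), IFIH1 (the RNA sensor MDA5), OAS1 (which makes the activator of RNase L) and RSAD2 (viperin) rose by 1.07, 1.91, 3.87 and 2.88.

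**Figure D2:**
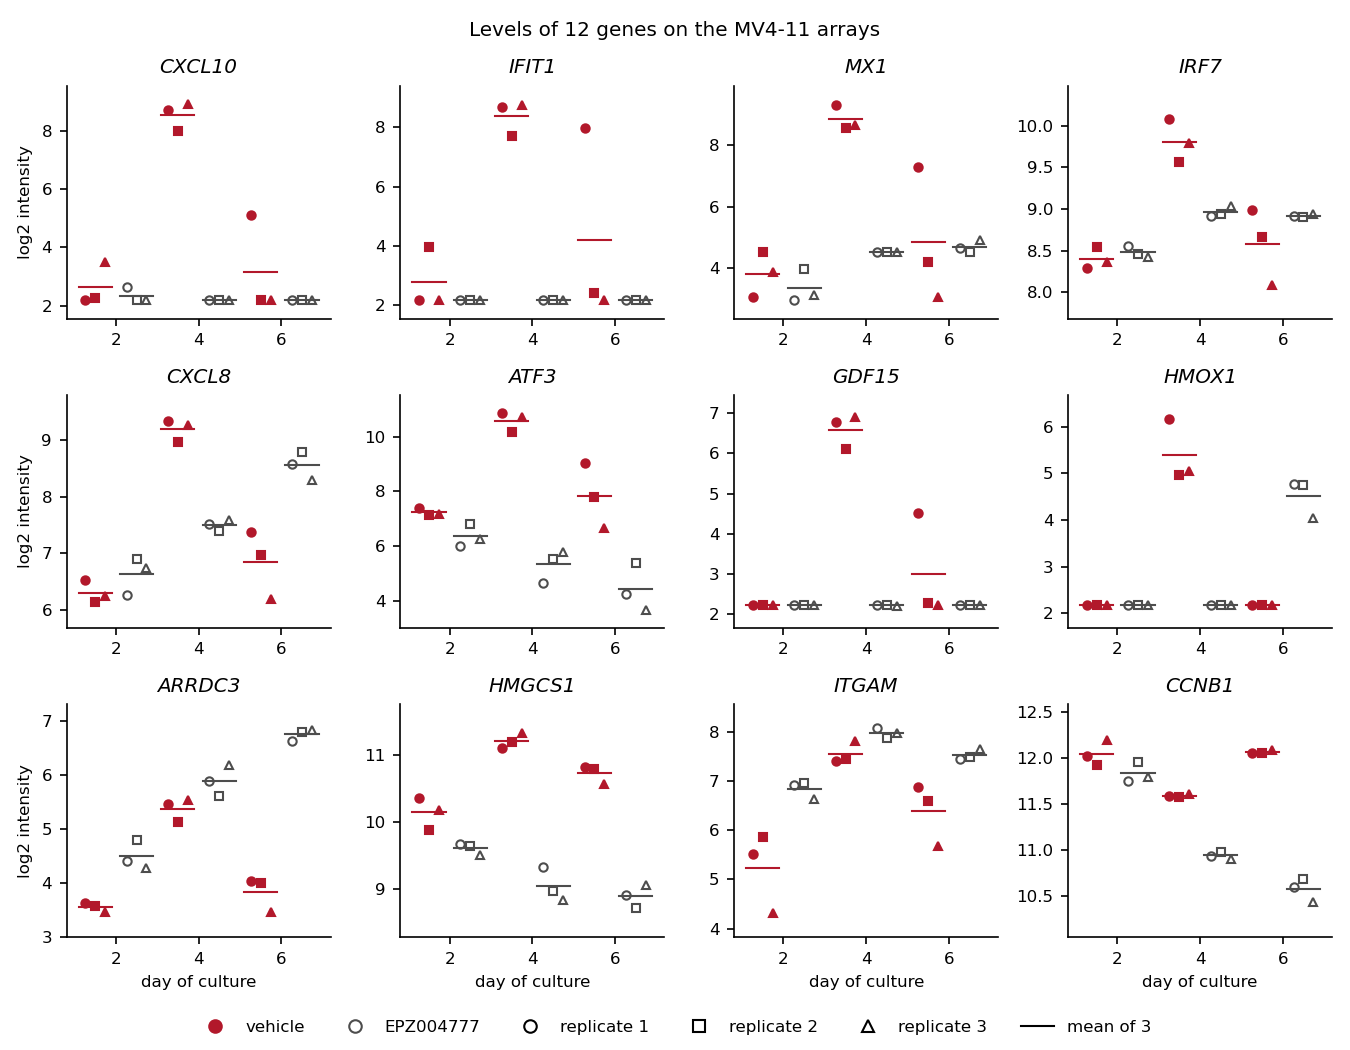
Log2 intensity of 12 genes by day on the 9 vehicle arrays (filled red) and the 9 EPZ004777 arrays (open grey) of MV4-11, 1 point per array with a bar at the mean of 3. The vehicle day 4 points of CXCL10, MX1, ATF3 and GDF15 lie above all others of the 9 vehicle arrays, and day 6 replicate 1 (circle) is nearest to them.

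The upstream genes of this pathway moved less. Of 21 tested ligand, receptor and signaling genes, 8 rose and 1 fell, with a median of 0.13. The rises were led by IRF9, the DNA-binding subunit of the interferon-activated complex, at 10.15, 9.89 and 10.04 on day 4 against 8.40, 8.59 and 8.29 on day 2 and 9.17, 8.63 and 8.37 on day 6, and by IRF7, an amplifier of interferon production, at 10.07, 9.56 and 9.79 against 8.29, 8.54 and 8.36 and 8.99, 8.67 and 8.08. Both separated day 4 from all other arrays, with differences of 1.45 (SE 0.12, adjusted p = 1.7e-07 in limma) and 1.32 (SE 0.14, adjusted p = 2.2e-06 in limma). Both are themselves interferon-induced. TYK2, a kinase of the receptor, rose by 0.30. IRF8, a myeloid lineage factor, fell by 0.20, a call lost without day 4 replicate 3 (adjusted p = 0.12 in limma). The receptor subunit IFNAR1 was at -0.09 and was not called. Of 6 interferon ligand genes with a probe set on the array (IFNA1, IFNA2, IFNB1, IFNG, IFNL1 and IFNL2), 0 passed the filter. None exceeded a log2 of 2.53 on any vehicle array, which is near the lowest value and gives no level.

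The promoters of the interferon list were searched for the response element itself. The letters GAAANNGAAA, a core of the ISRE, were searched on both strands in the 250 bases before each RefSeq start (build GRCh38.p14). They occur in 3.02% of all promoter windows and in 3.38% of the tested genes with a window. Of the 40 tested list genes, 33 have a window, and 23 of these hold the letters. The median day 4 difference was 2.26 among those 23 (21 called higher) and 1.18 among the other 10 (10 called higher), given as a description. The split did not leave out the 8 list genes that passed the filter only through the vehicle day 4 arrays. No conclusion on the motif is drawn from it. The windows below belong to the called members with the lowest adjusted p that hold the motif, IFI44L at chr1:78620198-78620447 and ISG20 at chr15:88638766-88639015, both on the plus strand and upstream of the transcript. Capitals mark the motif, which starts 164 and 73 bases before the IFI44L start and 69 bases before the ISG20 start.
IFI44L: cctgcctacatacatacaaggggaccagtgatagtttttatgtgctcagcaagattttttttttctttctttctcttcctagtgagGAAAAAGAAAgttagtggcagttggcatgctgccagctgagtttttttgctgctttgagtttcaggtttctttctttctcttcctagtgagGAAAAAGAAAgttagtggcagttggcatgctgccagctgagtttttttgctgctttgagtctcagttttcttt
ISG20: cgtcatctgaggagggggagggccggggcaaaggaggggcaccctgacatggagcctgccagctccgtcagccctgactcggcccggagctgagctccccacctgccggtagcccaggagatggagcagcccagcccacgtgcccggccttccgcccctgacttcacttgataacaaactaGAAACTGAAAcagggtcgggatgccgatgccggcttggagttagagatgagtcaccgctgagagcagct
IFI44L, an interferon-induced antiviral protein, was at 6.93, 5.94 and 6.37 on day 4 and at 2.19 on all other vehicle arrays but day 6 replicate 1, at 3.81. ISG20, an exonuclease that degrades viral RNA, stood at 6.56, 5.18 and 4.95 on day 4 and between 2.20 and 2.77 on the other 6. Neither overlapped between day 4 and the rest. On the vehicle arrays both reached the filter level of log2 4 on day 4 only. For a gene that passed the filter only through those arrays, the filter itself fixes this separation.

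Among cytokine and chemokine genes, 11 of 19 that passed the filter rose and none fell, with a median of 0.64. None of the 19 passed it only through the vehicle day 4 arrays, and with no filter, which adds the list's genes at or near the lowest value, the median was 0.17. CXCL8 (interleukin 8, a neutrophil chemokine) had levels of 9.33, 8.97 and 9.26 on day 4, 6.54, 6.15 and 6.25 on day 2 and 7.38, 6.97 and 6.20 on day 6, all day 4 arrays above the rest, with a difference of 2.61 (SE 0.23, adjusted p = 3.4e-07 in limma). CCL2 (a monocyte chemokine), CCL5 (a T cell and monocyte chemokine), and TNFSF10 (the death ligand TRAIL) rose by 2.21, 1.25 and 1.11. IL1B was at 6.13, 6.23 and 6.37 on day 4 and 6.87, 5.74 and 4.95 on day 6, where replicate 1 exceeded every day 4 array, and it was not called (adjusted p = 0.059 in limma). The receptors moved less: 10 of 27 rose and 1 fell, the median being 0.15. CX3CR1 (the fractalkine receptor), IL10RA and CCR1 rose by 0.81, 0.70 and 0.54. KIT, the stem cell factor receptor, fell by 0.29, but not without day 4 replicate 3 (adjusted p = 0.143 in limma).

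NF-kappaB targets rose in 15 of 22 cases and fell in none, with a median of 0.39. RELB, a subunit of the alternative pathway, stood at 7.61, 7.30 and 7.63 on day 4, 5.98, 6.24 and 5.79 on day 2 and 5.89, 5.91 and 5.73 on day 6, a difference of 1.59 (SE 0.19, adjusted p = 6.7e-06 in limma). TNFAIP3 and NFKBIA, which encode the inhibitors A20 and I-kappaB-alpha and are themselves targets of the pathway, rose by 0.91 and 0.56 with no overlap of the groups. ICAM1 (an adhesion molecule), IER3 and NFKBIZ rose by 0.89, 1.56 and 1.04. Immediate early and ERK feedback genes rose in 16 of 32 cases and fell in none, with a median of 0.28. EGR1, a growth factor-induced zinc finger protein, had 11.37, 11.33 and 11.64 on day 4, 9.83, 9.49 and 9.39 on day 2 and 10.71, 10.12 and 9.35 on day 6, with no overlap and a difference of 1.63 (SE 0.40, adjusted p = 0.0045 in limma). JUN, KLF6 and KLF2 rose by 2.14, 1.20 and 1.46.

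Stress genes divided by pathway. The ATF4 list rose in 19 of 34 cases and fell in none, with a median of 0.37. ATF3, a transcription factor induced by many stresses, stood at 10.85, 10.17 and 10.70 on day 4, 7.39, 7.16 and 7.18 on day 2 and 9.03, 7.80 and 6.68 on day 6, with a difference of 3.03 (SE 0.40, adjusted p = 2e-05 in limma). GDF15, a secreted stress cytokine, was at 6.77, 6.10 and 6.92 on day 4, 2.22 on the 3 day 2 arrays and 4.51, 2.27 and 2.22 on day 6. DDIT3 (the transcription factor CHOP), TRIB3 (a pseudokinase that restrains ATF4), SLC7A11 (the cystine transporter) and PPP1R15A (which directs dephosphorylation of eIF2alpha) rose by 1.73, 1.86, 1.81 and 1.62, and day 4 did not overlap the other days for any of these 4. INHBE, an activin subunit, rose by 3.78. Of 3 enzymes of amino acid synthesis examined, CTH (cystathionine gamma-lyase, of cysteine synthesis) rose by 0.71, a call lost in 6 of the 20 alternatives (adjusted p up to 0.234 in limma). ASNS (asparagine synthetase) was at 11.25, 11.25 and 11.53 on day 4 and 11.46, 11.24 and 10.86 on day 6 and was not called, nor was PHGDH, of serine synthesis, at -0.09. Of 17 cytosolic aminoacyl-tRNA synthetases 3 rose and 3 fell (1 and 1 without day 4 replicate 3), shares near the 13.4% and 15.2% of all genes. The largest rise among them was that of WARS1, which interferon also induces, at 0.67.

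The letters TGATGNAA, a core of the element bound by ATF4 with a CEBP partner (CARE), occur on either strand in 3.14% of all promoter windows. They occur in 2.31% of the tested genes with a window and in 6 of the 29 such genes of the ATF4 list. ATF3 and CEBPG, a partner of ATF4, are the called members with the lowest adjusted p that hold them, in windows at chr1:212565157-212565406 and chr19:33373863-33374112 on the plus strand. The capitals start 191 bases before the ATF3 start and 42 before the CEBPG start.
ATF3: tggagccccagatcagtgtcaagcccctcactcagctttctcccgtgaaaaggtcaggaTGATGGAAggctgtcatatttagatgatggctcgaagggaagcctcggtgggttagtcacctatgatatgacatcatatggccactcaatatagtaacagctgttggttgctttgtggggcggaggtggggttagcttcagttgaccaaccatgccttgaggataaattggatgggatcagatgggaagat
CEBPG: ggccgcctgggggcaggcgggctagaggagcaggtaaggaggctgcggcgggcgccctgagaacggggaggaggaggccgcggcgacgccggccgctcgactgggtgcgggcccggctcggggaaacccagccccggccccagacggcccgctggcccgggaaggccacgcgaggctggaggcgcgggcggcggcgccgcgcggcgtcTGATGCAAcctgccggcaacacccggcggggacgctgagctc
CEBPG rose by 0.27 on day 4, far less than ATF3, with levels of 11.61, 11.58 and 11.64 on day 4, 11.28, 11.34 and 11.30 on day 2 and 11.49, 11.38 and 11.23 on day 6.

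Genes of the unfolded protein response of the endoplasmic reticulum rose in 16 of 30 cases and fell in none, by small amounts, with a median of 0.23. HSPA5 (the chaperone BiP) stood at 14.17, 14.07 and 14.20 on day 4, 13.85, 13.76 and 13.91 on day 2 and 13.86, 13.77 and 13.80 on day 6, and HERPUD1 (a degradation factor) at 13.38, 13.43 and 13.45, 13.00, 13.01 and 12.99 and 13.24, 13.01 and 12.99, both without overlap. ERN1 (the sensor IRE1) and DNAJB9 rose by 0.90 and 0.88. The cytosolic heat shock list, which also holds the mitochondrial HSPE1, went the other way. In it 6 of 18 fell (3 without day 4 replicate 3) and none rose, with a median of -0.15. HSPA4L, HSPE1 and HSPH1 fell by 0.65, 0.43 and 0.25. In the NRF2 antioxidant list 5 of 21 rose (3 without day 4 replicate 3) and 1 fell, PRDX1 by 0.25 (0 without it), with a median of 0.09. HMOX1, heme oxygenase, was at 6.18, 4.97 and 5.05 on day 4 and at 2.19 on each of the other 6 arrays, a difference of 3.21 (SE 0.18, adjusted p = 1.4e-09 in limma). Those 6 arrays show no spread, so this pooled SE and p do not measure the spread among the day 4 arrays. SQSTM1, an autophagy receptor, rose by 0.81. NQO1 and GCLM, classical NRF2 targets, were at -0.30 and 0.11 and were not called.

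Glycolysis and hypoxia genes rose in 16 of 32 cases and fell in 1, with a median of 0.21. BNIP3 (a mitophagy receptor), NDRG1, ALDOC (a brain-type aldolase) and DDIT4 (an mTORC1 inhibitor) rose by 1.04, 1.10, 1.30 and 1.33, and VEGFA by 0.74. VEGFA read 11.51, 11.63 and 11.82 on day 4, 10.92, 10.64 and 10.71 on day 2 and 11.43, 11.01 and 10.79 on day 6. Day 4 was the highest on all 3 arrays. LDHA (lactate dehydrogenase A), a glycolytic enzyme of the list, was not called, at 14.88, 14.87 and 14.85 on day 4, 14.84, 14.82 and 14.84 on day 2 and 14.85, 14.85 and 14.84 on day 6. PFKL, the liver-type phosphofructokinase, fell by 0.32, a call lost without day 4 replicate 3 (adjusted p = 0.0674 in limma). The glucose-responsive targets of MondoA rose in 6 of 9 cases. ARRDC3, an arrestin family protein, stood at 5.45, 5.13 and 5.54 on day 4, 3.62, 3.57 and 3.46 on day 2 and 4.03, 4.00 and 3.46 on day 6, a difference of 1.68 (SE 0.13, adjusted p = 1e-07 in limma). TXNIP and ARRDC4, which lower glucose uptake, rose by 0.63 and 0.75 without overlap. KLF10 and HBP1 of the same list rose by 0.83 and 0.57.

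Sterol genes rose in 13 of 23 cases and fell in 1, with a median of 0.33. HMGCS1 (the synthase that feeds the mevalonate pathway) read 11.11, 11.20 and 11.33 on day 4, 10.37, 9.89 and 10.19 on day 2 and 10.83, 10.80 and 10.57 on day 6, a difference of 0.77 (SE 0.13, adjusted p = 0.0002 in limma), with day 4 above all other arrays. LSS, DHCR7 and FDPS, further enzymes of the pathway, rose by 0.69, 0.76 and 0.37, and INSIG1, which encodes a brake of the pathway, by 0.49. SQLE, squalene epoxidase, was at 12.27, 12.24 and 12.36 on day 4, 11.90, 11.74 and 11.81 on day 2 and 12.51, 12.50 and 12.23 on day 6, so that day 6 was at the level of day 4, and it was not called. Among fatty acid genes 7 of 20 rose and 3 fell. The share that rose was above the 13.4% of all genes, and the share that fell was near their 15.2%. ACSS2 (acetyl-CoA synthetase) and ACSL1 (which activates fatty acids) rose by 0.81 and 0.62, while DGAT1, which completes triglyceride synthesis, fell by 0.35. SCD (stearoyl-CoA desaturase) and FASN (fatty acid synthase) rose by 0.42 and 0.34. The SCD call was lost with the mean of its probe sets (adjusted p = 0.449 in limma), and the FASN call in 7 of the 20 alternatives, among them each of the 3 fits without a day 4 array (adjusted p up to 0.0896 in limma). In the list of LXR, lipid storage and oxidation genes 6 of 25 rose and 1 fell: PLIN2, a coat protein of lipid droplets, rose by 0.74 and PPARD by 1.02, while FABP5, a fatty acid carrier, fell by 0.38.

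The letters TCACNCCAC, a form of the sterol regulatory element (SRE), occur on either strand in 0.883% of all promoter windows. They occur in 1.16% of the tested genes with a window and in 1 of the 21 such genes of the sterol list. That gene is SREBF2, which encodes the sterol-responsive factor itself. Its window is at chr22:41832855-41833104 on the plus strand, with the capitals starting 133 bases before the start.
SREBF2: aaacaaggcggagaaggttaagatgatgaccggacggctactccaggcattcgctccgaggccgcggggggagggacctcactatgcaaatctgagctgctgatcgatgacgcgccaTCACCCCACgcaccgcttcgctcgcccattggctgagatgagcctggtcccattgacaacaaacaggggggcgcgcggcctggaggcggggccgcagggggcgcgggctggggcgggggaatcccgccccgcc
SREBF2 stood at 10.34, 10.25 and 10.41 on day 4, 9.98, 10.01 and 9.91 on day 2 and 10.16, 10.01 and 10.16 on day 6, a difference of 0.29 (SE 0.06, adjusted p = 0.0019 in limma) with no overlap of the groups.

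Proliferation genes were lower on day 4, by small amounts. Mitosis and spindle genes fell in 30 of 44 cases and rose in none, with a median of -0.25, against 15.2% of all genes called lower. CCNB1, the cyclin of mitotic entry, read 11.58, 11.57 and 11.61 on day 4, 12.02, 11.92 and 12.20 on day 2 and 12.05, 12.06 and 12.09 on day 6, a difference of -0.47 (SE 0.08, adjusted p = 0.00037 in limma). PLK1, a mitotic kinase, read 8.78, 8.79 and 8.72 on day 4, 9.43, 9.21 and 9.22 on day 2 and 9.11, 9.02 and 9.28 on day 6. In both the 3 day 4 arrays were the lowest of the 9. MKI67, which encodes the proliferation marker Ki-67, was at -0.06 and was not called. DNA replication genes fell in 25 of 44 cases (14 without day 4 replicate 3) and rose in none, with a median of -0.22. Among them were POLE2, GINS3 and TK1 (thymidine kinase), which fell by 0.53, 0.50 and 0.54, and the helicase subunit MCM7, by 0.26. Of 16 G1 regulators 3 rose and 2 fell, shares near the 13.4% and 15.2% of all genes: the inhibitors CDKN1A (p21) and CDKN1C (p57) rose by 0.49 and 0.90 and the D cyclin CCND2 by 0.20, and CDK2 and CDK4 fell by 0.37 and 0.33. The CCND2 call was lost with the mean of its probe sets and without day 4 replicate 3 (adjusted p up to 0.978 in limma). The p53 targets, of which CDKN1A is also a member, rose in 7 of 23 cases and fell in 3, with a median of -0.02. The share that fell was near the 15.2% of all genes. MDM2 was at 0.07 and not called. Regulators of the BCL2 family rose in 5 of 13 cases and fell in 2 (1 without day 4 replicate 3), the latter near the share of all genes. BMF, a promoter of apoptosis, was at 0.57 and BID at -0.32 (highest adjusted p 0.0537 in limma with an array left out). STAT5 output genes rose in 5 of 14 cases (3 without day 4 replicate 3) and fell in none, with the kinase gene PIM1 at 0.44.

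Ribosome biogenesis genes fell in 17 of 32 cases and rose in none, with a median of -0.21. NOP16, BYSL and POLR1C, which act in assembling or transcribing ribosomal RNA, fell by 0.40, 0.37 and 0.36, whereas MYC itself was at 13.39, 13.41 and 13.32 on day 4, 13.42, 13.43 and 13.42 on day 2 and 13.51, 13.47 and 13.57 on day 6 and was not called. Respiratory chain genes fell in 15 of 30 cases and rose in none, with a median of -0.15. Without day 4 replicate 3 the count was 3 of 30, near the share of all genes called lower in that fit (915 of 10971). The median was still -0.15 there, so the calls rested mostly on that array while the small shift remained. NDUFA9 and NDUFA10, subunits of complex I, fell by 0.32 and 0.25. Among 11 housekeeping genes 3 fell (0 without day 4 replicate 3) and none rose, with a median of 0.00: SDHA, TBP and HPRT1, by 0.26, 0.22 and 0.19. Those calls were lost in 1, 4 and 7 of the 20 alternatives, each of them without day 4 replicate 3 (adjusted p up to 0.109, 0.243 and 0.13 in limma).

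Of the largest falls, those of at least 2-fold were APOL4, an apolipoprotein L, by 1.04 and FZD6, a Wnt receptor, by 1.01. The APOL4 call was lost without day 4 replicate 1 or 3 and with no filter (adjusted p up to 0.113 in limma). Its other probe set was at -0.08. With 1 vehicle array left out, FZD6 was at -1.27 to -0.54. VAT1L fell by 0.95, AP1S3, a subunit of an adaptor complex of vesicle transport, by 0.95, SOBP by 0.94 and INCENP, a subunit of the chromosomal passenger complex and a member of the mitosis list, by 0.93. IGLL1, a surrogate light chain of B cell precursors, fell by 0.87. IGLL1 read 8.03, 8.17 and 7.78 on day 4, 8.73, 8.96 and 8.89 on day 2 and 8.64, 8.99 and 8.98 on day 6, all day 4 arrays being the lowest.

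Genes of myeloid maturation changed in part. Of 29 tested, 12 rose and 2 fell (8 and 1 without day 4 replicate 3), with a median of 0.13. ITGAM and ITGAX, the integrins CD11b and CD11c, rose by 1.75 and 1.66, CD86, a costimulatory protein, by 1.45, TREM1, an activating receptor of monocytes, by 2.48 and NCF1, a subunit of the NADPH oxidase, by 1.25. ITGAM read 7.42, 7.45 and 7.80 on day 4, 5.51, 5.87 and 4.32 on day 2 and 6.88, 6.60 and 5.68 on day 6, with all day 4 arrays on top and day 6 above most of day 2. S100A8, a calprotectin subunit, went the other way and fell by 0.75, to 6.09, 6.12 and 6.17 on day 4 from 6.62, 6.50 and 6.90 on day 2 and 6.90, 7.08 and 7.29 on day 6. The primary granule list fell in 4 of 9 cases and rose in 1 (2 without day 6 replicate 1): RNASE2 and CTSG fell by 0.59 and 0.41. Of 19 genes of MHC class I presentation 2 were called higher and 2 lower (1 and 1 without day 4 replicate 3), and of 10 of class II 1 was called higher and 0 lower, shares no larger than the 13.4% and 15.2% of all genes. The list of genes bound by MLL fusions rose in 4 of 15 (1 without day 4 replicate 3) and fell in none, with ZC3H12C at 1.37 and MEIS1, not called, at 0.11. Lysosome genes rose in 10 of 26 cases and fell in 1 (0 without day 4 replicate 3), among them CTSD (cathepsin D) by 0.66 and PSAP (prosaposin) by 0.64.

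Day 6 did not simply return to day 2 on every array. Between day 6 and day 2, 123 genes were called (1.12% of genes): 86 higher and 37 lower on day 6. The count rested on single arrays, being 28 without day 6 replicate 1 and 366 without day 6 replicate 3. Of the 161 genes called at least 2-fold higher on day 4, day 6 replicate 1 was the highest of the 6 other arrays for 144, day 6 replicate 2 for 9 and day 6 replicate 3 for 0, given as a count with no test. Over all genes called higher, the median gene on day 6 replicate 1 had covered 36.5% of the distance from the day 2 mean to the day 4 mean, against 22.0% on replicate 2 and -0.47% on replicate 3. Without day 6 replicate 1, 3035 genes were called in the main comparison. Its interferon list was shifted by 1.08 from the day 2 mean, against 1.77 to 2.35 on the day 4 arrays and 0.18 and 0.00 on the other day 6 arrays. The ATF4 list on that array reached 0.46, within the day 4 range of 0.41 to 0.63, whereas its MondoA and NF-kappaB lists reached 0.10 and 0.03, against 0.51 to 0.74 and 0.33 to 0.58 on day 4.

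**Figure D3:**
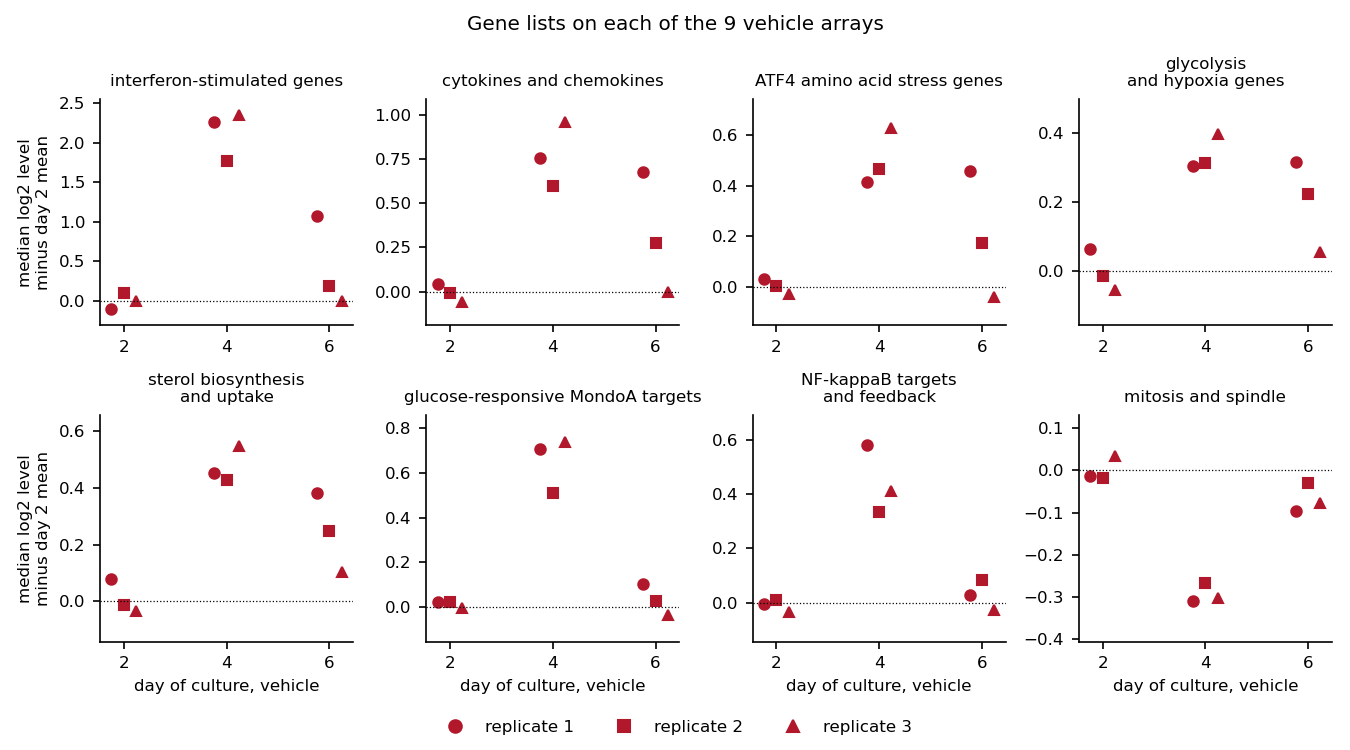
Median over the tested genes of a list of the log2 level minus the gene's day 2 mean, for each of the 9 vehicle arrays and 8 lists. Day 6 replicate 1 (circle) lies within or near the day 4 range for the cytokine, ATF4, hypoxia and sterol lists, midway for the interferon list and near 0 for the MondoA and NF-kappaB lists.

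Of genes called between day 6 and day 2, KDELR3 (a receptor that returns proteins to the endoplasmic reticulum) and AXL (a receptor tyrosine kinase) rose from day 2 to both later days. The adjusted p of day 6 against day 2 was 0.00056 and 0.039 in limma. KDELR3 read 2.19, 2.20 and 2.21 on day 2, 5.37, 5.06 and 5.19 on day 4 and 4.01, 3.21 and 3.01 on day 6. AXL read 4.20, 5.28 and 5.28, 8.38, 7.71 and 7.95 and 7.35, 6.49 and 5.46 on those days. Day 4 was the highest for both, and all 3 day 6 arrays exceeded all 3 day 2 arrays. MT1M, a metallothionein, followed another course and fell by 1.17 from day 2 to day 6, with levels of 7.22, 7.58 and 7.38 on day 2, 6.41, 6.63 and 6.31 on day 4 and 6.19, 6.31 and 6.16 on day 6.

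The cultures that received EPZ004777 for the same days were compared in the same way. The day 4 difference of vehicle cultures minus the same difference of treated cultures, which share no arrays, was called for 989 genes (9.01%): 679 more positive and 310 more negative in vehicle. Without vehicle day 4 replicate 3 the count was 608. The interferon list had a median day 4 difference of 0.12 in treated cells against 1.77 in vehicle, and 32 of its 40 genes were called in this test, all more positive in vehicle. CXCL10 was at 2.19 on all 3 treated day 4 arrays, and the treated and vehicle differences stood at -0.07 and 5.65, apart by 5.72 (adjusted p = 1.3e-05 in limma). IFIT1 was at 2.19 on all 9 treated arrays. HMOX1 was at 2.19 on treated days 2 and 4 and at 4.77, 4.74 and 4.05 on treated day 6. IFIT3, at 0.12 in treated cells and 4.09 in vehicle, was not called in this test (adjusted p = 0.066 in limma).

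In this test 18 of 34 ATF4 genes, 14 of 23 sterol genes, 15 of 32 glycolysis and hypoxia genes, 9 of 19 cytokines and chemokines and 11 of 22 NF-kappaB targets were called, all more positive in vehicle. Over all genes, 6.19% were called more positive and 2.83% more negative in vehicle. Of 44 mitosis genes 3 were called more negative in vehicle and 0 more positive, of 32 ribosome biogenesis genes 4 and 0, and of 44 replication genes 0 and 1. The median day 4 differences of the mitosis and replication lists in treated cells were -0.14 and -0.21, against -0.25 and -0.22 in vehicle. A treated gene that moves steadily from day 2 to day 6 has a day 4 difference near 0 by construction, so that this test compares departures from such a course and not levels. Treated CCNB1, for instance, read 11.75, 11.96 and 11.80 on day 2, 10.94, 10.98 and 10.90 on day 4 and 10.59, 10.68 and 10.44 on day 6.

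**Figure D4:**
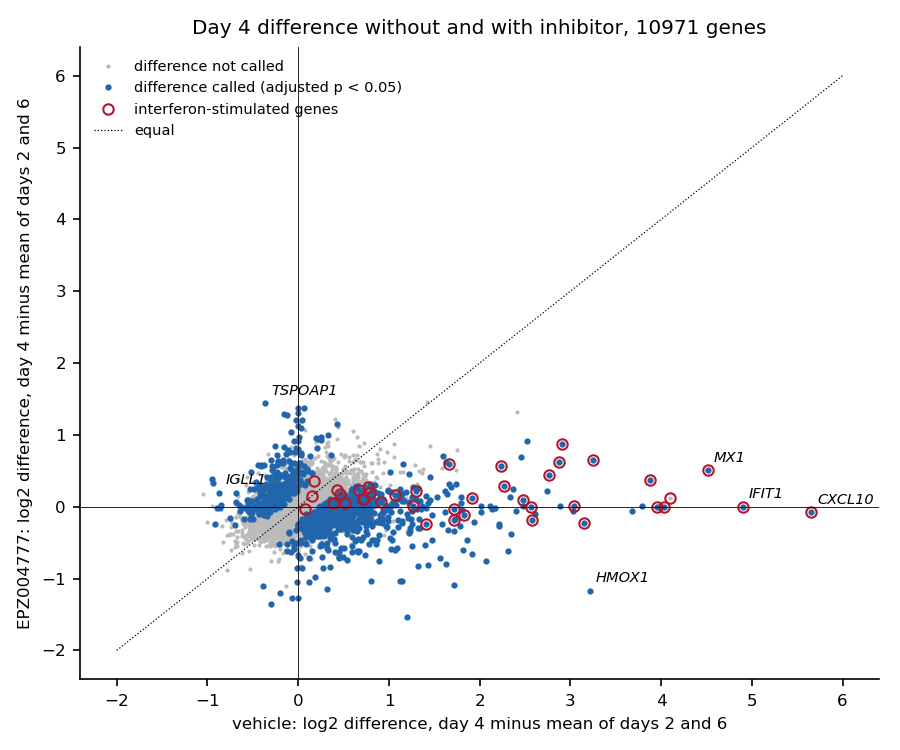
Log2 difference of day 4 from the mean of days 2 and 6 in vehicle cultures (x axis) and in EPZ004777 cultures (y axis) for each of the 10971 genes, with genes whose 2 differences were called unequal in blue and interferon-stimulated genes circled. The circled genes reach 5.65 on the x axis, at CXCL10, and all lie under 1 on the y axis.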

How the data were processed

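MV4-11 vehicle cultures were profiled on Affymetrix arrays with 54675 probe sets. The deposited values are linear intensity made by the authors with GCRMA, per the submitters' processing notes, with no version given in the sources used here. GCRMA corrects background, quantile-normalizes and summarises each probe set, and it compresses low values to a common floor. Log2 was taken with a pseudocount of 0. Of the probe sets 41097 name a single gene, 1801 several and 11777 none. Of the first, 41043 matched RefSeq by Entrez gene identifier (GRCh38.p14). The probe set with the highest mean over 24 arrays stood for its gene, and 10971 genes with log2 of at least 4 on at least 3 arrays were tested. Limma 3.58.1 in R 4.3.3 fitted 8 group means over 24 arrays, with 2-sided tests, Benjamini-Hochberg adjustment and calls at adjusted p under 0.05. The residual spread was pooled over those arrays. For genes at the lowest value in some groups, the SE and p therefore do not measure the spread of the vehicle arrays. On simulated data 73 of 100 genes shifted by 0.5 and 96 of 100 shifted by 1 were recovered, with 12 false calls.

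The samples, gene lists and motifs were chosen with earlier results of these data known, so list counts are descriptions beside the share of all genes called. The text takes its genes from a rule: the 15 largest rises and 15 largest falls with non-overlapping groups, at most 6 genes per list, taken in order of adjusted p, a panel, the 5 most positive and 5 most negative differences between vehicle and treated, and the 5 largest day 6 changes in each direction. List members beyond the rule were added after their values were seen, as examples of their list. The alternatives were other filters, scalings and probe set rules, array weights, a moderated trend, the 9 vehicle arrays alone, an RNA integrity covariate, a replicate block, a 2-fold minimum, and each vehicle array left out. Having 3 arrays a day limits the precision.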

Additional observations from a re-analysis of the deposited data

Results flagged for a closer look

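Data that the comparisons do not use also held a day 4 difference: of 4528 probe sets that passed the filter and name several genes or none, 966 were called between vehicle day 4 and the other vehicle days, 732 higher and 234 lower. Their genes are not named here.

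The day 4 difference of the vehicle cultures differed from that of the EPZ004777 cultures for 989 genes in limma, by a test of the difference itself. The most positive values, in log2 units, were 5.72 for CXCL10, 4.90 for IFIT1, 4.38 for HMOX1, 4.03 for IFI44 and 4.01 for MX1. For CXCL10, IFIT1 and IFI44 the 3 treated arrays of day 4 sat at the lowest value, and the treated day 4 difference of MX1 was 0.50. For HMOX1 the treated difference was -1.17, with a treated level of 2.19 on days 2 and 4 and of 4.52 ± 0.41 (SD, n = 3) on day 6. The most negative values were -1.81 for TSPOAP1, -1.46 for AK5, -1.40 for VN1R1, -1.38 for GAPT and -1.34 for VAT1L. In TSPOAP1, AK5, VN1R1 and GAPT the vehicle difference was not called (-0.36, -0.16, -0.13 and 0.00), and the treated day 4 difference was 1.44, 1.30, 1.28 and 1.37. VAT1L fell by 0.95 in vehicle and was 0.39 higher in treated cells on day 4.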

How the results depend on the processing

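The main comparison called 2725 to 4278 genes under 11 alternatives of processing, and 1873 (without day 4 replicate 3) to 3035 with 1 vehicle array left out. Left-out arrays gave 1871 to 2895 calls against day 2, 1096 to 2045 against day 6, 28 to 366 for day 6 against day 2, and 608 to 1040 for the vehicle difference minus the treated one. A 2-fold minimum left 163, 216, 133, 6 and 196 calls in these 5 comparisons. Array weights gave 3268 calls against day 6, 1026 for day 6 against day 2 and 2009 for the difference from treated cells. For day 6 against day 2, 63 genes were called with the 9 vehicle arrays alone and 214 with the RNA integrity covariate. Same-numbered arrays of different days correlated at -0.255 to 0.121 in their deviations from group means, and 0 of 9 arrays correlated best with its own number, so the numbers do not pair the arrays. With a replicate block 2966, 2763, 1916, 110 and 865 genes were called. The cause of these changes was not tested.

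Of 125 called genes named, 110 kept the call in all 20 alternatives, and no called gene changed sign. Of 640 list medians under alternatives, 625 stayed within the spread between replicates. With no filter the medians were 0.0157 for interferon signaling, 0.1705 for cytokines and -0.0682 for primary granule genes, where genes at the lowest value enter. With the mean of probe sets they were -0.2977 for heat shock, 0.0158 for NRF2, -0.151 for the BCL2 family and -0.2316 for granule genes. Quantile normalization again gave 0.0445 for tRNA synthetases, -0.1837 for replication and -0.063 for granule genes. Left-out arrays gave 0.3582 to 0.4691 for NF-kappaB targets, 0.024 to 0.1041 for NRF2 and 0.5737 to 0.6777 for MondoA targets. Some genes that were not called changed sign when an array was left out: BST2 at -0.0113 to 0.1509, GCLM at -0.005 to 0.1735 and PHGDH at -0.1656 to 0.0028. With the RNA integrity covariate GAPT was at 0.0988 and VN1R1 at 0.0336. Signal near the lowest value limits what the size of the largest rises can show, since 43 of the 161 genes at least 2-fold higher had 3 or more of the other 6 arrays below the filter level.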
